A study of Mus musculus with 19 samples.

Results

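The genotype by LCWE interaction was read from gene counts of mouse heart. It asks, gene by gene, how far the change after LCWE in Mcm8 knockout hearts differed from the change after LCWE in wild-type hearts. LCWE is the cell wall extract of Lactobacillus casei, which is injected into mice to model Kawasaki disease, and PBS is its vehicle. All 19 of the 19 libraries of the series entered, in 4 groups taken from the genotype and treatment in the labels: 5 libraries of Mcm8 knockout (Mcm8Ko) hearts with LCWE, 3 of Mcm8Ko hearts with PBS, 6 of wild-type (Wt) hearts with LCWE and 5 of Wt hearts with PBS. The RNA was preamplified with a whole-transcriptome kit before sequencing. The value for a gene is the log2 fold change of LCWE over PBS in Mcm8Ko hearts minus that in Wt hearts, so a positive value means a change that was more upward in the knockout. The knockout allele, the strain, the age and sex of the mice, the LCWE dose, the interval after it and any pooling of animals are stated nowhere in the labels. No source says that each library came from its own animal, and the tests therefore speak of the spread among these libraries, part of which may be technical.

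MCM8 is a helicase of the minichromosome maintenance family. It works with MCM9 in homologous recombination and in the repair of crosslinked DNA, and mice without it have defects in gametogenesis. LCWE given to mice produces inflammation of the coronary arteries and the heart muscle, in which macrophages, neutrophils and interleukin-1 take part. An interaction is the design's measure of whether losing Mcm8 alters that response, and it draws on all 4 groups at once, so its error is larger than that of either response alone.

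Total counts ranged from 11853233 to 16145911 per library, so that 1 CPM, the unit of level used throughout (counts relative to the TMM-scaled library total), stood for 11.8 to 16.1 counts. Genes of the cardiac sarcomere summed to 123562 to 158582 CPM in every library. Mcm8 had 0.155, 0.130, 0.749, 0.339 and 0.586 CPM in Mcm8Ko LCWE hearts and 0.910, 0.617 and 0.753 CPM in Mcm8Ko PBS hearts, on 2 to 13 counts a library. It had 2.60 to 5.19 CPM (median 4.23) in Wt LCWE hearts and 2.84, 3.43, 3.42, 4.54 and 4.08 CPM in Wt PBS hearts. The knockout libraries lay below every wild-type library under both treatments, with log2 fold changes of -3.36 ± 0.34 (SE, adjusted p = 5.12e-05) under LCWE and -2.26 ± 0.39 (SE, adjusted p = 0.0316) under PBS. The 3 Mcm8Ko PBS libraries were unlike each other: replicate 1 stood at 87.9 on the first principal component, where the other 18 libraries lay between -33.2 and 29.3. Xist was above 20 CPM in 1 of 5 Mcm8Ko LCWE, 2 of 3 Mcm8Ko PBS, 5 of 6 Wt LCWE and 5 of 5 Wt PBS libraries. Myl7, an atrial myosin light chain, was above 5 CPM in 2 Mcm8Ko LCWE libraries (replicates 2 and 4), 1 Mcm8Ko PBS library (replicate 2) and 1 Wt LCWE library (replicate 5). Mcm8Ko LCWE replicate 2 had 0.68 CPM of Xist, and its mean log2 level of Y-linked genes, 0.5001, was within the 0.103 to 0.648 of the libraries with Xist reads, so its sex could not be read. With the level of Y-linked genes or 1 surrogate variable as a covariate, 0 genes were called for the interaction. The fit without covariates also called 0, so these counts cannot show what part such differences have. Beyond weights and leaving libraries out, that part was not tested. Liver transcripts were unevenly spread over the groups. Their 15 markers summed to 184 to 362 CPM in Mcm8Ko LCWE and 18.1 to 594 CPM in Mcm8Ko PBS hearts. The sums were 14.9 to 673 CPM in Wt LCWE and 6.68 to 518 CPM in Wt PBS hearts. Libraries with low sums were thus found in every group except Mcm8Ko LCWE, and the part this has in the interaction was not tested.

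No gene passed the threshold for the interaction. With the quasi-likelihood test of edgeR, 0 of 14301 genes (0%) had an adjusted p under 0.05. The lowest adjusted p was 0.121, for Cyp4b1. At an unadjusted p under 0.05 there were 1145 genes (8.01%), of which 433 (3.03%) had a higher and 712 (4.98%) a lower value in the knockout. Of the other tools, limma-voom called 0 genes. DESeq2 called 5 (0.035%), with Macroh2a2 higher and Cyp4b1, Ggnbp1, Tbx6 and Notum lower, and limma-voom with library weights called 21 (0.147%), of which 1 was higher and 20 were lower. Tbx6 encodes a T-box transcription factor and Notum an enzyme that inactivates Wnt proteins. The split by direction depended on the scaling: with library totals alone, 900 genes were higher and 329 lower at an unadjusted p under 0.05. The median over all genes was then 0.10 rather than -0.02, and list values below are given beside the all-gene median for that reason.

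The count of called genes turned on 1 library. Without Mcm8Ko PBS replicate 2, 481 of 14528 genes (3.31%) were called, 222 higher and 259 lower. Without Mcm8Ko LCWE replicate 4, Cyp4b1 alone was called, and leaving out any other library called 0 genes. Without Mcm8Ko PBS replicate 1, the library that stood apart, 0 genes were called and 488 had an unadjusted p under 0.05. Among libraries whose label number was 100 to under 200, 2230 of 14747 genes (15.1%) were called, 1163 higher and 1067 lower. Only 1 Mcm8Ko PBS library (replicate 1) was in that range, and it was assumed to vary like the other groups.

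**Figure D1:**
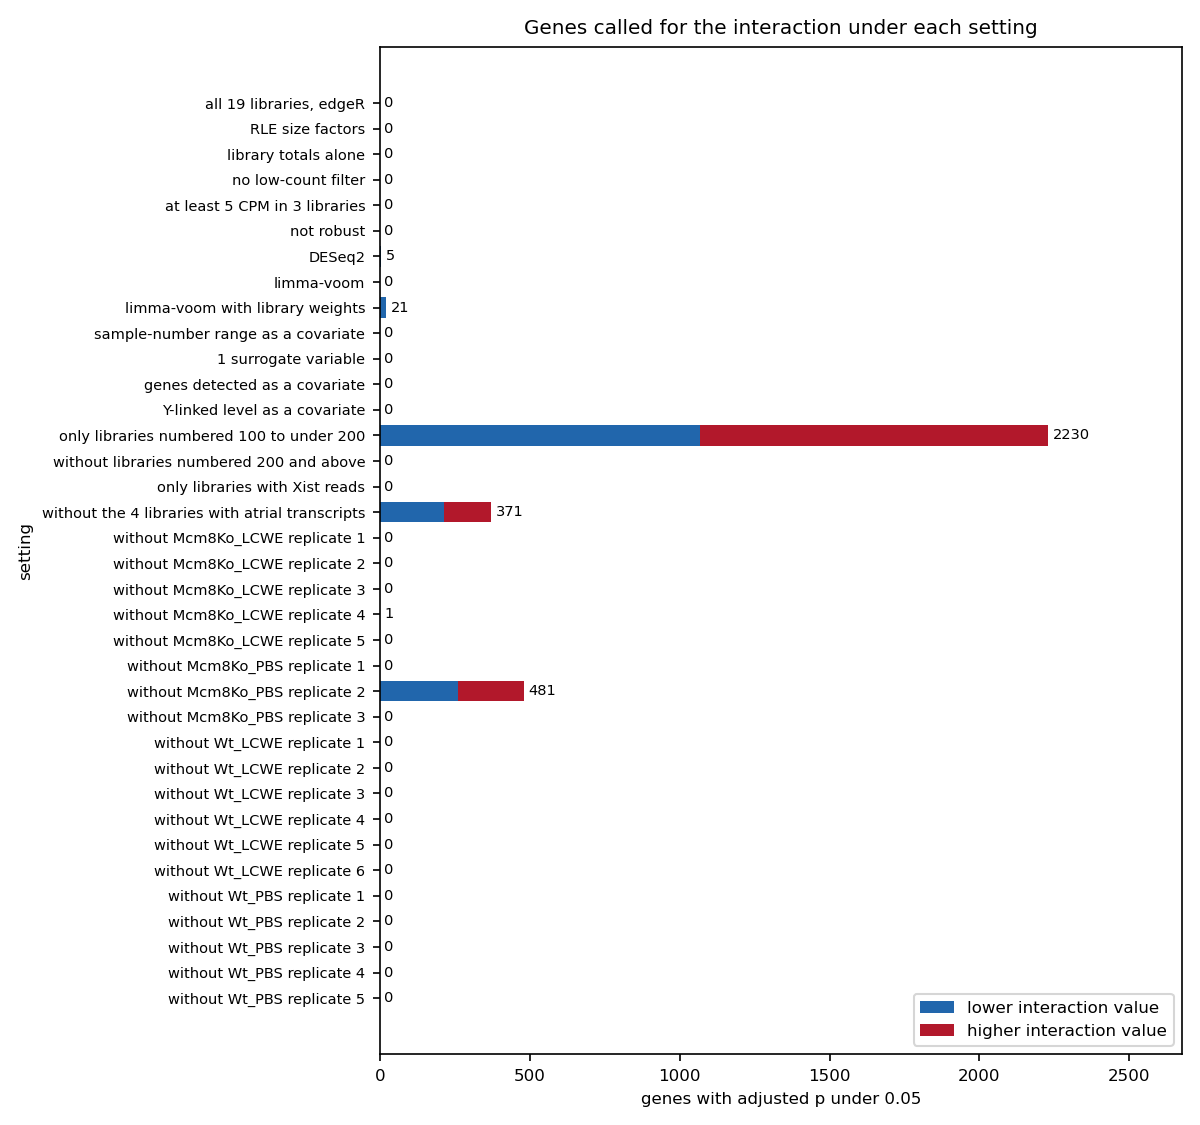
Genes called for the interaction (adjusted p under 0.05, horizontal axis) under each setting of the analysis, with lower values in blue and higher values in red and the total beside each bar. Most settings gave 0, leaving out Mcm8Ko PBS replicate 2 gave 481, leaving out the 4 libraries with atrial transcripts, which include it, gave 371 (2.59%), and the libraries numbered 100 to under 200 gave 2230.

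Genes passed the threshold after LCWE in Mcm8Ko hearts and not in Wt hearts, although the difference between the responses, tested above, called none. After LCWE, 415 genes (2.9%) were called in Mcm8Ko hearts, of which 298 (2.08%) were lower and the others (0.818%) higher, and 0 genes (0%) in Wt hearts, where 892 (6.24%) had an unadjusted p under 0.05. Knockout over wild type, 1 gene (0.00699%) was called under LCWE (Mcm8) and 86 (0.601%) under PBS, 75 higher and 11 lower. These comparisons share libraries: the LCWE change in the knockout and the genotype difference under PBS both rest on the same 3 Mcm8Ko PBS hearts. Among the 1145 genes with an unadjusted interaction p under 0.05, the genotype difference was larger under PBS than under LCWE for 1044 (91.2%), against 9837 of 14301 genes (68.8%) overall. The LCWE change was larger in Mcm8Ko than in Wt hearts for 1082 of them (94.5%), against 10068 genes (70.4%) overall. The LCWE estimates had opposite signs in the 2 genotypes for 634 (55.4%), against 4829 (33.8%) overall. The 1145 genes were chosen by the interaction, which contains these differences, and the Mcm8Ko PBS group is the smallest. Shares among them are therefore a description only.

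The 12 genes with the smallest p among lower values, at a mean of at least 5 CPM, were Cyp4b1, Ggnbp1, Cep95, Rhpn2, Osgin1, Inca1, Cenpa, Pde2a, Grik5, Fabp3, G0s2 and Fhod1. Their interaction values ran from -1.84 to -0.63 with adjusted p from 0.121 to 0.527. All 12 fell after LCWE in Mcm8Ko hearts, and their estimates in Wt hearts lay between -0.10 and 0.32. The choice by interaction p contains the knockout response, so the count of 12 stands beside a background of 2.08% lower calls as a description only.

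Cyp4b1 (GRCm38 chr4:115624725-115647723, minus strand) encodes a cytochrome P450 of the fatty acid hydroxylating CYP4 family. It had 29.1, 28.4, 31.2, 42.6 and 29.996 CPM in Mcm8Ko LCWE hearts and 82.1, 56.7 and 94.6 CPM in Mcm8Ko PBS hearts. It had 37.1 to 47.5 CPM (median 40.2) in Wt LCWE hearts and 35.8, 37.9, 37.02, 48.6 and 48.8 CPM in Wt PBS hearts. All 3 Mcm8Ko PBS hearts lay above the other 16 libraries, and 4 of 5 Mcm8Ko LCWE hearts lay below all wild-type hearts. The LCWE change was -1.27 ± 0.16 (SE, adjusted p = 0.00203) in Mcm8Ko and -0.01 ± 0.14 (SE, adjusted p = 0.993) in Wt hearts, and the interaction value was -1.26 ± 0.21 (SE, adjusted p = 0.121).

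Osgin1 (GRCm38 chr8:119434124-119446256, plus strand), an oxidative stress induced growth inhibitor and target of the transcription factor NRF2, had 5.26, 5.13, 5.69, 6.71 and 4.95 CPM in Mcm8Ko LCWE hearts and 12.9, 14.9 and 13.03 CPM in Mcm8Ko PBS hearts. Wild-type levels were 3.996 to 6.21 CPM (median 5.40) in Wt LCWE hearts and 3.76, 5.67, 5.78, 1.87 and 7.20 CPM in Wt PBS hearts. The Mcm8Ko PBS hearts were again above all others and close to each other. The interaction value was -1.44 ± 0.35 (SE, adjusted p = 0.527), with an LCWE change of -1.30 ± 0.26 (SE, adjusted p = 0.0281) in Mcm8Ko hearts. Inca1, which encodes an inhibitor of cyclin-dependent kinase, had 4.25, 4.02, 4.65, 2.64 and 3.51 CPM in Mcm8Ko LCWE hearts and 13.7, 6.51 and 7.76 CPM in Mcm8Ko PBS hearts. The wild-type groups had 4.15 to 6.45 CPM (median 5.52) in Wt LCWE hearts and 5.34, 5.54, 6.01, 5.94 and 6.09 CPM in Wt PBS hearts. The interaction value of Inca1 was -1.19 ± 0.29 (SE, adjusted p = 0.527), and its 3 Mcm8Ko PBS hearts were above the other 16 libraries, with replicate 2 nearest to them.

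Pde2a (GRCm38 chr7:101421691-101512827, plus strand) encodes a phosphodiesterase that hydrolyses cAMP and cGMP and is stimulated by cGMP. It had 189, 178, 189, 184 and 175 CPM in Mcm8Ko LCWE hearts and 421, 225 and 295 CPM in Mcm8Ko PBS hearts. It had 157 to 209.7 CPM (median 177) in Wt LCWE hearts and 183, 194, 174, 168 and 192 CPM in Wt PBS hearts. Levels in the Mcm8Ko LCWE and both wild-type groups overlapped closely and all 3 Mcm8Ko PBS hearts were higher, replicate 2 by the smallest margin. The interaction value was -0.76 ± 0.19 (SE, adjusted p = 0.527), and the knockout over wild type difference was 0.02 ± 0.12 (SE, adjusted p = 0.992) under LCWE and 0.78 ± 0.14 (SE, adjusted p = 0.0316) under PBS.

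Fabp3 (GRCm38 chr4:130308595-130315463, plus strand), the fatty acid binding protein of heart muscle, had 2968, 2532, 3678, 5400 and 2445 CPM in Mcm8Ko LCWE hearts and 6890, 4440 and 6978 CPM in Mcm8Ko PBS hearts. It had 3515 to 5456 CPM (median 4228) in Wt LCWE hearts and 3600, 3178, 3428, 4338 and 3753 CPM in Wt PBS hearts. The Mcm8Ko PBS hearts overlapped the others, since replicate 2 fell within the range of the LCWE hearts of both genotypes. The interaction value was -1.09 ± 0.28 (SE, adjusted p = 0.527). G0s2, which encodes an inhibitor of adipose triglyceride lipase, had 40.3, 109, 45.3, 60.04 and 68.97 CPM in Mcm8Ko LCWE hearts and 257, 54.4 and 248 CPM in Mcm8Ko PBS hearts. Levels in wild type were 54.4 to 90.1 CPM (median 64.04) in Wt LCWE hearts and 60.2, 47.2, 49.9, 63.4 and 52.3 CPM in Wt PBS hearts. Replicates 1 and 3 of Mcm8Ko PBS carried the difference, and replicate 2 lay within the wild-type range. The interaction value of G0s2 was -1.84 ± 0.47 (SE, adjusted p = 0.527).

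Of the remaining lower genes, Ggnbp1, a gene named for binding gametogenetin, had 37.02, 41.1, 40.5, 43.6 and 45.7 CPM in Mcm8Ko LCWE hearts and 82.9, 57.7 and 60.6 CPM in Mcm8Ko PBS hearts. It had 45.1 to 52.1 CPM (median 47.5) in Wt LCWE hearts and 46.2, 45.7, 44.8, 49.2 and 55.4 CPM in Wt PBS hearts, and its interaction value was -0.69 ± 0.15 (SE, adjusted p = 0.457). All 3 Mcm8Ko PBS hearts were above the others for Ggnbp1, as they were for Rhpn2 and for Fhod1, a formin that acts on actin. For Fhod1 the margin was negligible, with 53.76 CPM in Mcm8Ko PBS replicate 2 against 53.75 CPM in Mcm8Ko LCWE replicate 2. Interaction values were -0.91 ± 0.22 (SE, adjusted p = 0.527) for Rhpn2 and -0.66 ± 0.17 (SE, adjusted p = 0.527) for Fhod1. Cep95 (a centrosomal protein), Cenpa (the histone H3 variant of centromeres) and Grik5 (a kainate receptor subunit) had values of -0.97 ± 0.22, -0.63 ± 0.15 and -0.77 ± 0.19 (SE), and for each of them Mcm8Ko PBS replicate 2 lay among the other libraries.

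Among higher values, 10 of the genes with the smallest p were Macroh2a2, Ror1, Il13ra1, Fzd1, Osbpl7, Zfp267, Lmnb1, Olfml3, Hif1a and Krba1. Interaction values of these 10 ran from 0.49 to 1.24 with adjusted p from 0.312 to 0.527. After LCWE, 6 of the 10 rose in Mcm8Ko hearts (background 0.818% higher), and the Wt estimates lay between -0.43 and 0.24. In 9 of the 10 the LCWE estimates had opposite signs in the 2 genotypes, as in 6 of the 12 lower genes. The share was 33.8% over all genes and 55.4% of those at an unadjusted p under 0.05. Choosing genes by the difference of the responses favours opposite signs, so these counts are a description only.

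Macroh2a2 (GRCm38 chr10:61738640-61784604) encodes the histone variant macroH2A2. It had 9.82, 11.2, 8.77, 9.01 and 12.2 CPM in Mcm8Ko LCWE hearts and 4.76, 6.45 and 4.29 CPM in Mcm8Ko PBS hearts. It had 7.08 to 11.1 CPM (median 7.59) in Wt LCWE hearts and 11.02, 9.03, 10.3, 9.21 and 7.35 CPM in Wt PBS hearts. The 3 Mcm8Ko PBS hearts lay below all 16 others. Macroh2a2 rose after LCWE in Mcm8Ko hearts (log2 fold change 0.98 ± 0.19 SE, adjusted p = 0.0227), the Wt estimate was -0.20 ± 0.15 (SE, adjusted p = 0.867), and the interaction value was 1.18 ± 0.24 (SE, adjusted p = 0.312).

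Lmnb1 (GRCm38 chr18:56707813-56753424, plus strand), which encodes lamin B1 of the nuclear envelope, had 10.05, 10.5, 11.9, 7.11 and 8.72 CPM in Mcm8Ko LCWE hearts and 2.80, 6.17 and 4.22 CPM in Mcm8Ko PBS hearts. It had 6.53 to 14.6 CPM (median 7.87) in Wt LCWE hearts and 9.85, 8.22, 9.58, 9.54 and 7.27 CPM in Wt PBS hearts. Every Mcm8Ko PBS heart was below every other heart, and the interaction value was 1.16 ± 0.34 (SE, adjusted p = 0.527). Olfml3, a secreted protein with an olfactomedin domain, had 24.04, 22.4, 22.6, 25.8 and 20.04 CPM in Mcm8Ko LCWE hearts and 6.72, 15.7 and 11.1 CPM in Mcm8Ko PBS hearts. Its wild-type levels were 18.2 to 24.6 CPM (median 22.4) in Wt LCWE hearts and 19.04, 19.1, 19.6, 17.5 and 17.2 CPM in Wt PBS hearts. Here too the Mcm8Ko PBS hearts were below the 16 others, replicate 2 being nearest, and the interaction value was 0.80 ± 0.24 (SE, adjusted p = 0.527).

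Il13ra1, Ror1 and Fzd1 encode receptors. Il13ra1, a receptor chain for interleukin-13 and interleukin-4, had 44.9, 43.1, 43.5, 39.5 and 42.6 CPM in Mcm8Ko LCWE hearts and 20.4, 32.8 and 27.3 CPM in Mcm8Ko PBS hearts. It had 31.3 to 41.2 CPM (median 38.05) in Wt LCWE hearts and 45.9, 38.7, 43.9, 35.2 and 29.9 CPM in Wt PBS hearts. Mcm8Ko PBS replicates 1 and 3 were below all other hearts and replicate 2 was not, and the interaction value was 0.73 ± 0.19 (SE, adjusted p = 0.527). The Wnt receptors Ror1 and Fzd1 had interaction values of 1.24 ± 0.31 (SE, adjusted p = 0.527) and 0.89 ± 0.24 (SE, adjusted p = 0.527), and for both the Wt PBS hearts overlapped the Mcm8Ko LCWE hearts (Wt PBS 8.54 to 16.2 CPM for Ror1, 9.28 to 15.6 CPM for Fzd1). Zfp267, a zinc finger gene, and Krba1, a gene with a KRAB domain, had values of 0.89 ± 0.25 and 0.49 ± 0.14 (SE).

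Hif1a (GRCm38 chr12:73901375-73947530, plus strand) encodes the oxygen-regulated subunit of hypoxia-inducible factor 1. It had 98.7, 62.4, 93.1, 104 and 92.8 CPM in Mcm8Ko LCWE hearts and 52.7, 61.9 and 48.9 CPM in Mcm8Ko PBS hearts. It had 61.8 to 90.5 CPM (median 76.3) in Wt LCWE hearts and 87.4, 107.4, 101, 75.4 and 51.1 CPM in Wt PBS hearts. The Mcm8Ko PBS hearts were below all Mcm8Ko LCWE hearts and overlapped the lowest hearts of both wild-type groups, and the interaction value was 0.88 ± 0.26 (SE, adjusted p = 0.527). Osbpl7, an oxysterol-binding protein family member, had an interaction value of 0.74 ± 0.20 (SE, adjusted p = 0.527).

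**Figure D2:**
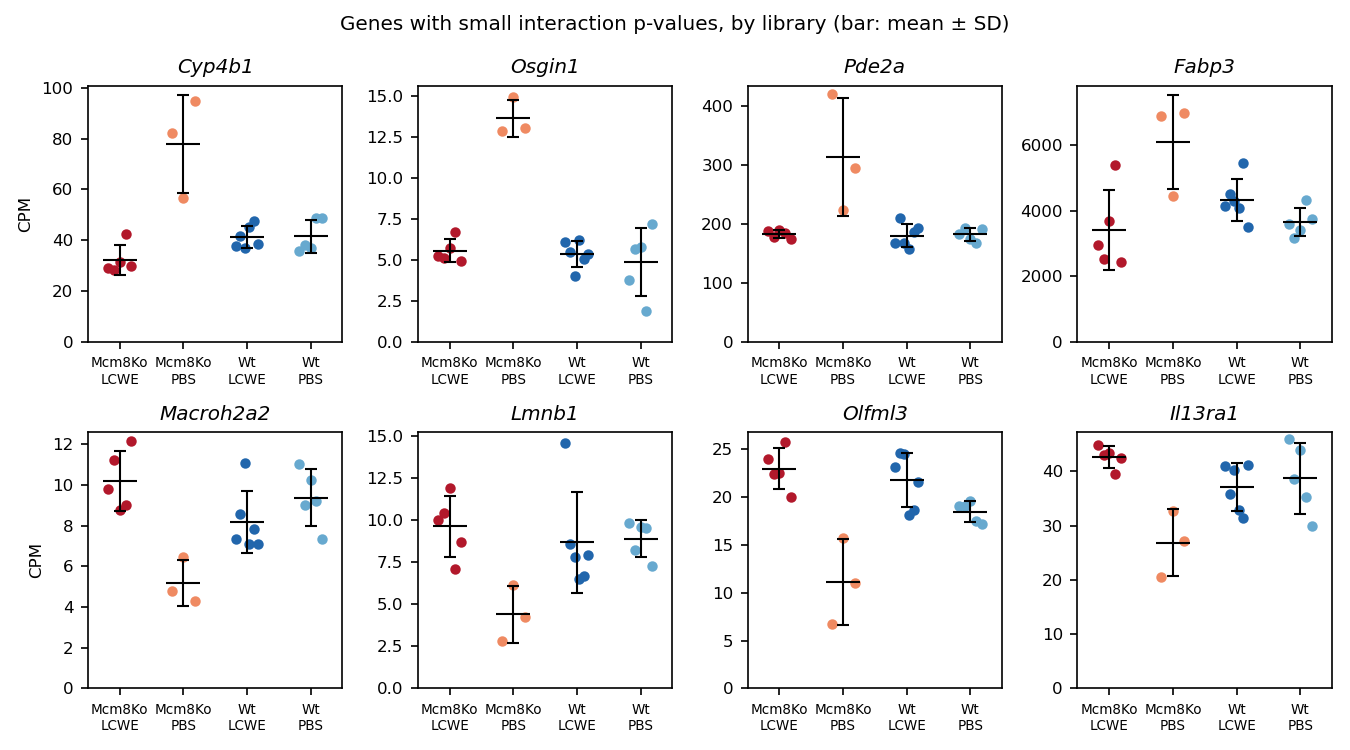
CPM (vertical axis, from 0) in each library (points) by group, with the mean ± SD, for 4 genes with lower (top) and 4 with higher (bottom) interaction values. The 3 Mcm8Ko PBS libraries lie above all others for Cyp4b1, Osgin1 and Pde2a and below all others for Macroh2a2, Lmnb1 and Olfml3, and they overlap the others for Fabp3 and Il13ra1.

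Across the 22 genes together, the genotype difference was larger under PBS than under LCWE in 21 (68.8% of all genes). The LCWE change was larger in Mcm8Ko than in Wt hearts in 22 (70.4% of all genes). All 3 Mcm8Ko PBS libraries lay outside the range of the other 16 for 10 of the 22, 7 above (0.965% of all tested genes) and 3 below (0.832%), where 257 of all genes (1.8%) showed such a separation. The 10 include Fhod1, separated by 53.76 against 53.75 CPM. Since the genes were chosen for the interaction, all of these shares are a description. Mcm8Ko PBS replicate 2 was the nearest of the 3 to the other hearts in 19 of the 22. With replicate 2 left out, 19 of the 22 were called, beside 3.31% of all genes, and with replicate 1 left out, 0 were. The 22 were chosen for a small p in these same libraries, so nothing is read from either count. The genotype difference was called for 0 of the 22 under LCWE (0.00699% of all genes) and for 9 under PBS (0.601%), and since the interaction contains both differences, nothing is read from these counts.

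**Figure D3:**
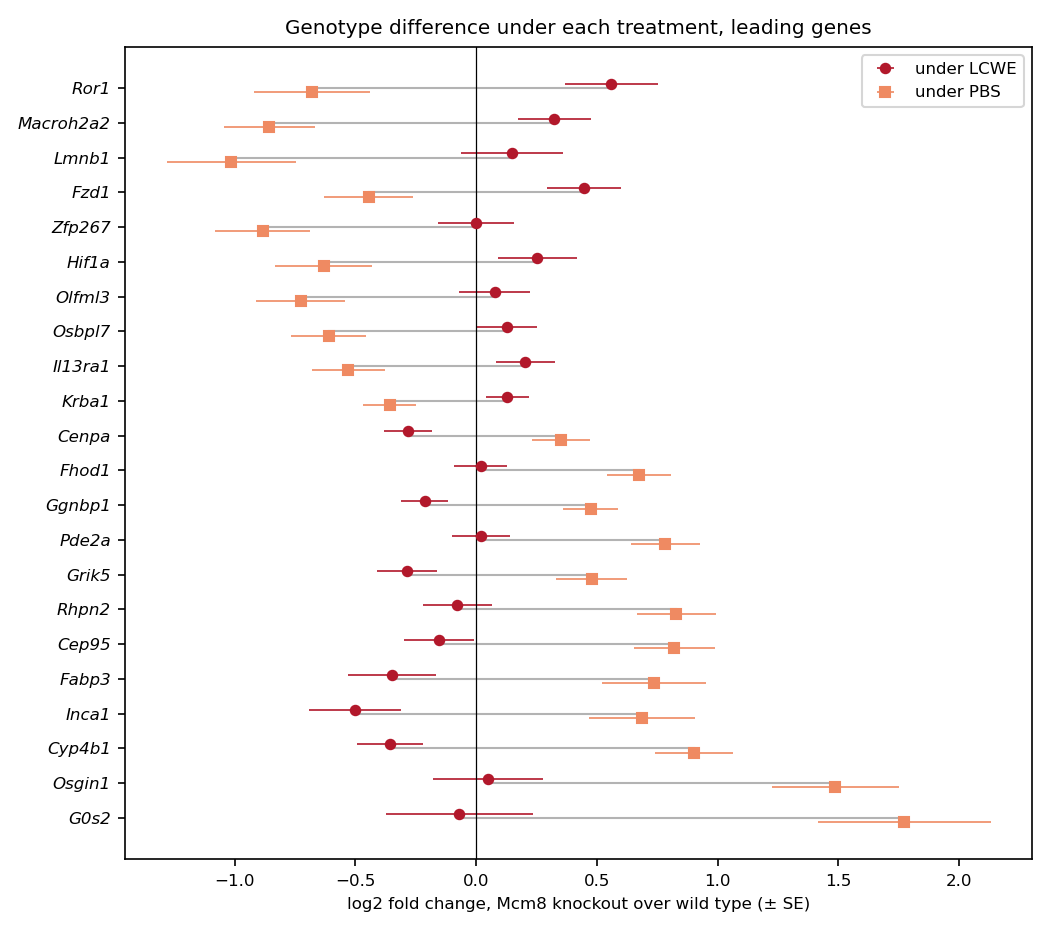
Log2 fold change of Mcm8Ko over Wt hearts (± SE, horizontal axis) for the 22 genes, under LCWE (circles) and under PBS (squares), ordered by interaction value. The PBS values run from -1.01 for Lmnb1 to 1.77 for G0s2, and the LCWE values of most genes lie nearer to 0.

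Gene lists of pathways and cell types were set beside the all-gene median of -0.02, at which 6735 of 14301 genes (47.1%) had a positive interaction value. Their counts at an unadjusted p under 0.05 stand beside 3.03% higher and 4.98% lower over all genes. Apart from the sex-linked list, the lowest medians were those of platelet and erythroid, clock, fatty acid oxidation and oxidative stress genes, and the highest those of neutrophil, B cell, matrix and macrophage genes. In the plot by library the fatty acid, clock, oxidative stress, platelet, matrix, macrophage and neutrophil lists set Mcm8Ko PBS replicates 1 and 3 apart from replicate 2. They were not apart from all other hearts in each list. For platelet and erythroid genes they stood at 0.79 and 0.90, within the -0.12 to 1.62 of Wt LCWE hearts (median 1.02). Mcm8Ko LCWE replicate 4 was at 1.24 for these genes. For neutrophil genes replicates 1 and 3 stood at -0.45 and -0.47, where the lowest Wt PBS heart was at -0.45. For the clock, 1 LCWE heart of each genotype exceeded replicate 3. Medians of the T and NK cell, MHC class I, MHC class II, interferon, cytokine, atrial, skeletal muscle, epicardial, sarcomere, ion channel, immediate early, fetal cardiac, glucocorticoid, liver and sex-linked lists changed sign when a single library was left out, and no direction is read from them.

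**Figure D4:**
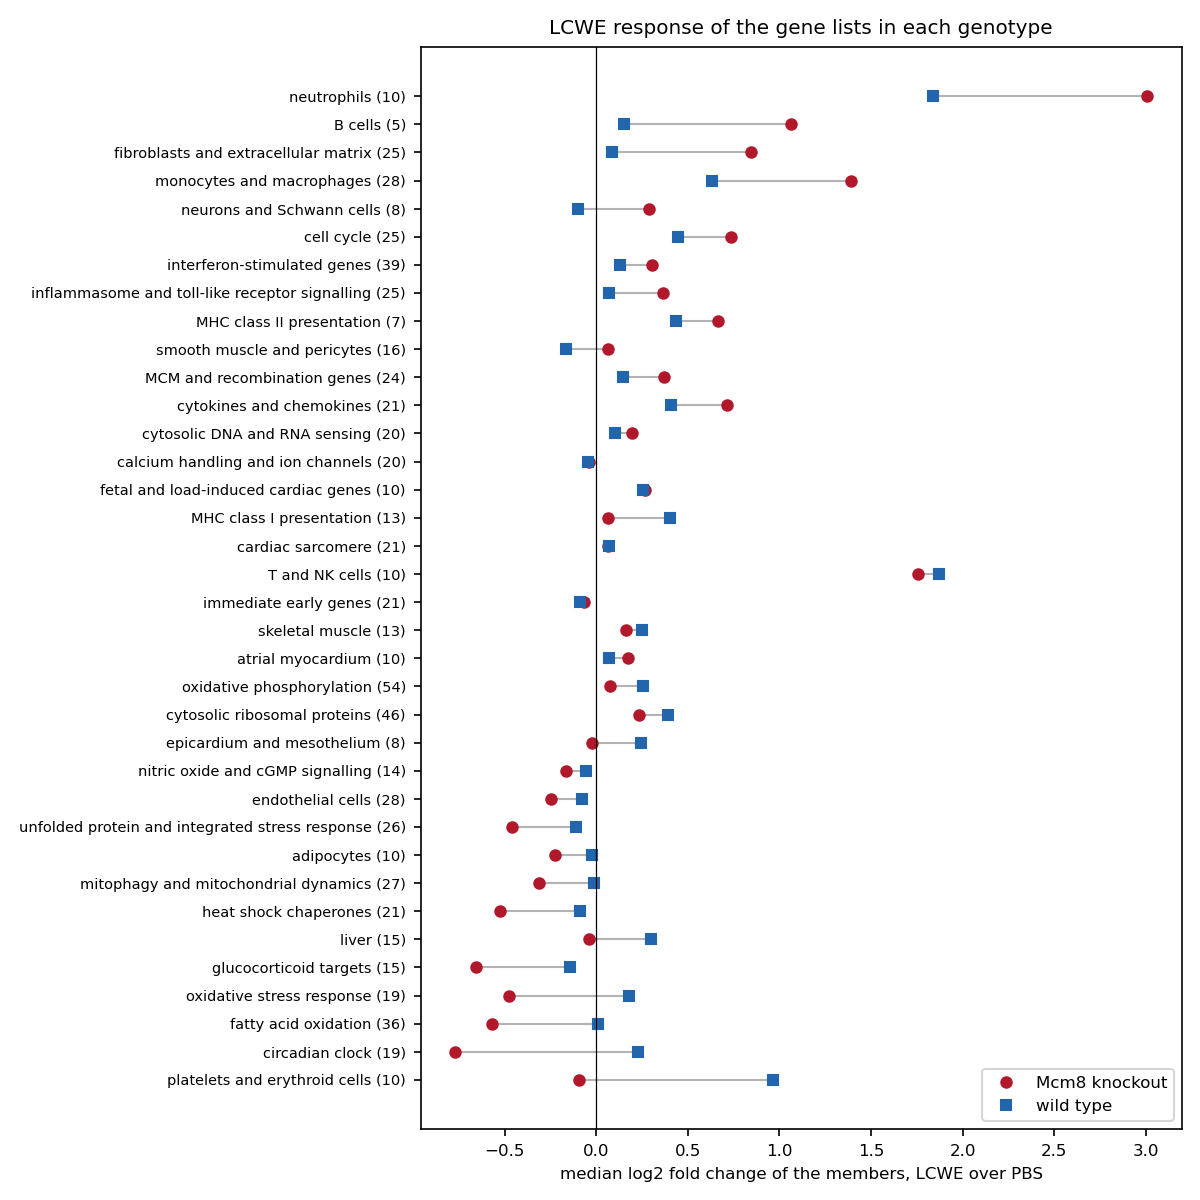
Median log2 fold change of LCWE over PBS (horizontal axis) for the tested members of each gene list except the sex-linked one, in Mcm8Ko (circles) and Wt (squares) hearts, ordered by median interaction value, with the number of members in parentheses. Fatty acid oxidation and clock genes lie at -0.57 and -0.77 in Mcm8Ko against 0.01 and 0.23 in Wt hearts, and macrophage genes at 1.39 against 0.63.

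**Figure D5:**
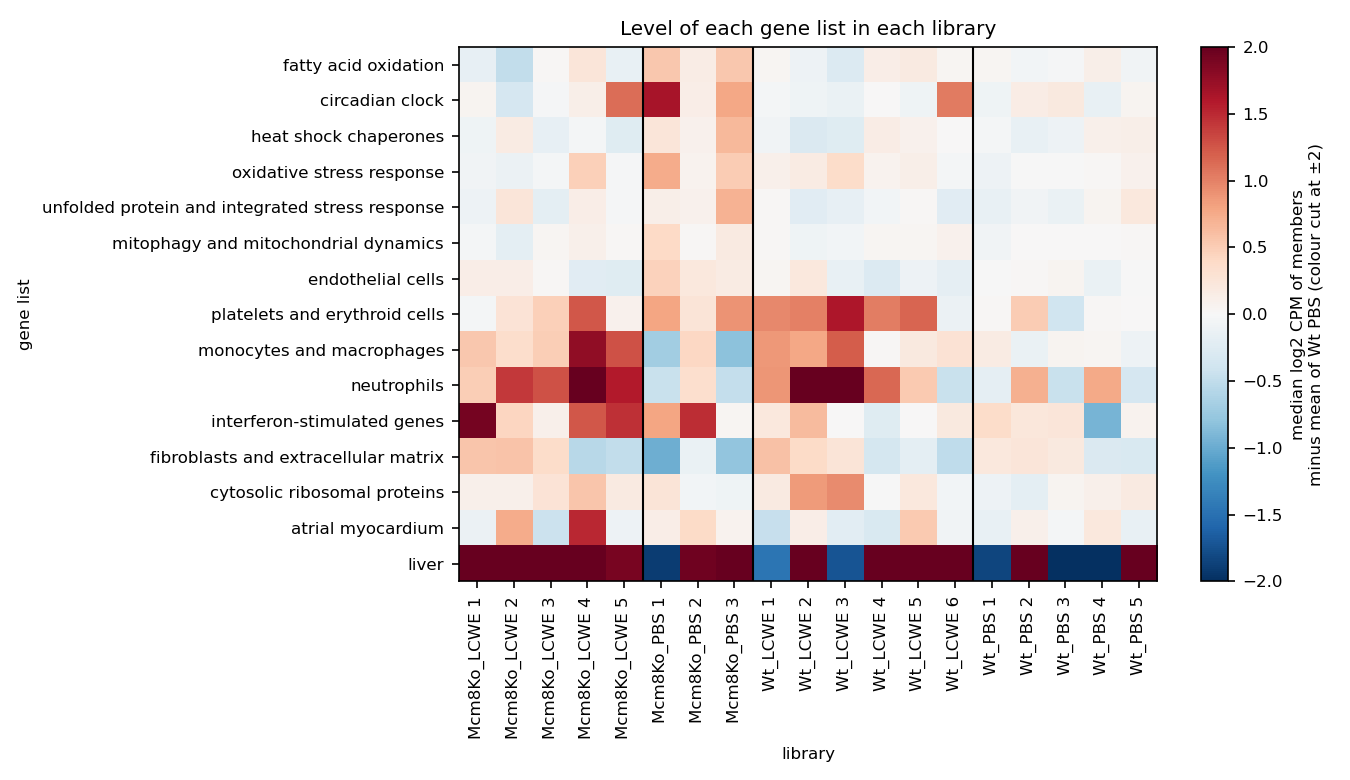
Level of 15 gene lists (rows) in each of the 19 libraries (columns), as the median log2 CPM of the members minus the mean of the Wt PBS libraries, with colour cut at 2 in either direction. Replicates 1 and 3 of Mcm8Ko PBS stand at 0.55 and 0.54 for fatty acid oxidation and 1.64 and 0.77 for the clock, against 0.14 and 0.13 in replicate 2. For the clock, Mcm8Ko LCWE replicate 5 (1.11) and Wt LCWE replicate 6 (1.03) are above Mcm8Ko PBS replicate 3.

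Genes of fatty acid oxidation, the main fuel pathway of the adult heart, had lower interaction values as a group. All 36 listed genes were tested, 3 of 36 had a positive value, and the median was -0.60 against -0.02 over all genes. None was called for the interaction, and 18 of 36 had an unadjusted p under 0.05, all lower, where 4.98% of all genes did. After LCWE the list's median was -0.57 in Mcm8Ko hearts, with 11 members falling (background 2.08%), and 0.01 in Wt hearts, with 0 called. Knockout over wild type, the median was -0.14 under LCWE and 0.47 under PBS.

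Slc25a20, the carnitine-acylcarnitine carrier of the inner mitochondrial membrane, had 153, 131, 186, 215 and 149.9 CPM in Mcm8Ko LCWE hearts and 269, 205 and 307 CPM in Mcm8Ko PBS hearts. It had 167 to 203 CPM (median 181) in Wt LCWE hearts and 188, 167, 174, 191 and 148 CPM in Wt PBS hearts. Mcm8Ko PBS replicates 1 and 3 were above every other heart and replicate 2 was within the range of Mcm8Ko LCWE, and the interaction value was -0.73 ± 0.20 (SE, adjusted p = 0.527). Etfdh, which passes electrons from acyl-CoA dehydrogenases to ubiquinone, had 454, 357, 541, 517 and 395 CPM in Mcm8Ko LCWE hearts and 849, 590.3 and 924 CPM in Mcm8Ko PBS hearts. Levels in wild type were 426 to 615 CPM (median 544) in Wt LCWE hearts and 576, 503, 517, 629 and 488 CPM in Wt PBS hearts. It fell after LCWE in Mcm8Ko hearts (log2 fold change -0.80 ± 0.17 SE, adjusted p = 0.0301), and its interaction value was -0.76 ± 0.22 (SE, adjusted p = 0.527). Acadm, the medium-chain acyl-CoA dehydrogenase, had 759, 674, 901, 962 and 867 CPM in Mcm8Ko LCWE hearts and 1349, 1042 and 1400 CPM in Mcm8Ko PBS hearts, and its interaction value was -0.61 ± 0.19 (SE, adjusted p = 0.527). Acaa2, the mitochondrial thiolase, and Eci1, an enoyl-CoA isomerase, had interaction values of -0.70 ± 0.20 (SE, adjusted p = 0.527) and -0.60 ± 0.16 (SE, adjusted p = 0.527), and both fell after LCWE in Mcm8Ko hearts. Leaving out single libraries gave list medians from -0.74 (without Mcm8Ko PBS replicate 2) to -0.47 (without Mcm8Ko PBS replicate 1). Of the 36, 12 were called, all lower, without Mcm8Ko PBS replicate 2 (background 1.78%), and 0 without Mcm8Ko PBS replicate 1.

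The circadian clock runs on a loop in which CLOCK and BMAL1 act through E-box sequences and PER, CRY and other products feed back on them. Its genes had a median interaction value of -0.92, with 3 of 19 positive. Of the 19, 1 was higher and 5 were lower at an unadjusted p under 0.05 (3.03% and 4.98% of all genes). After LCWE the median was -0.77 in Mcm8Ko hearts and 0.23 in Wt hearts. The promoter of Bhlhe41, a clock repressor, is shown as 1 of 5 list members whose promoter holds an E-box. It is GRCm38.p6 chr6:145865371-145865670, minus strand, from RefSeq, running from 250 bases before to 50 bases after the gene start, with the E-box in capitals.
Bhlhe41: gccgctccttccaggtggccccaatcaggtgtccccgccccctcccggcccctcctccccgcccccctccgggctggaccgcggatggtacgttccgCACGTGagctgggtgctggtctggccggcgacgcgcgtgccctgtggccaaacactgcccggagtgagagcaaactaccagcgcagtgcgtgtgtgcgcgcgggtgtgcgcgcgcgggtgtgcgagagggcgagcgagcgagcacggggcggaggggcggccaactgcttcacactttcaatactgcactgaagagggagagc
The letters CACGTG, read on both strands, were in 5 of 16 clock genes with a promoter in the table (Per1, Cry1, Tef, Bhlhe41 and Ciart) and in 8.09% of 27025 promoters, and in 1 (Hif1a) of the 21 among the 22 genes above that have a promoter there. The D-box letters TTANGTAA were in 1 of the 16 (Per3) and in 2.72% of all promoters.

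Bhlhe41 had 11.98, 14.2, 12.7, 17.2 and 27.98 CPM in Mcm8Ko LCWE hearts and 59.9, 13.4 and 58.001 CPM in Mcm8Ko PBS hearts. It had 8.17 to 29.5 CPM (median 14.8) in Wt LCWE hearts and 11.02, 13.6, 15.4, 12.01 and 14.99 CPM in Wt PBS hearts. Replicates 1 and 3 of Mcm8Ko PBS were far above and replicate 2 was at the common level, and the interaction value was -1.67 ± 0.54 (SE, adjusted p = 0.555). Per2, a clock repressor, had 9.97, 14.4, 6.07, 32.2 and 51.99 CPM in Mcm8Ko LCWE hearts and 129.8, 25.99 and 95.7 CPM in Mcm8Ko PBS hearts, and Wt LCWE hearts ranged from 6.55 to 29.1 CPM beside 6.26, 8.10, 8.97, 11.2 and 15.6 CPM in Wt PBS hearts. The interaction value of Per2 was -2.21 ± 0.84 (SE, adjusted p = 0.587). Npas2, a partner of BMAL1, had a positive interaction value of 1.25 ± 0.43 (SE, adjusted p = 0.583), with 15.9, 16.9, 16.3, 8.06 and 8.39 CPM in Mcm8Ko LCWE hearts and 6.02, 11.9 and 7.16 CPM in Mcm8Ko PBS hearts. The time of day at which hearts were taken is not given, and its part was not tested. The list median was -0.28 without Mcm8Ko PBS replicate 1 and -1.22 without replicate 2.

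Glucocorticoid targets, which follow corticosterone and stress, had a median of -0.49 over 15 genes, with 2 of 15 positive and 2 lower at an unadjusted p under 0.05. Tsc22d3, the glucocorticoid-induced leucine zipper, had 87.3, 71.1, 77.2, 85.9 and 74.6 CPM in Mcm8Ko LCWE hearts and 244, 131 and 122 CPM in Mcm8Ko PBS hearts. It had 57.3 to 92.6 CPM (median 85.8) in Wt LCWE hearts and 105, 95.3, 109.7, 146 and 103 CPM in Wt PBS hearts. Mcm8Ko PBS replicate 1 was the highest heart, and the interaction value was -0.62 ± 0.25 (SE, adjusted p = 0.598). Mt1, a metallothionein, had 171, 124, 190.1, 450.3 and 214 CPM in Mcm8Ko LCWE hearts and 545, 253 and 338 CPM in Mcm8Ko PBS hearts and an interaction value of -1.08 ± 0.42 (SE, adjusted p = 0.587). Without Mcm8Ko PBS replicate 1 the list's median was 0.00. Immediate early genes had a median of -0.07, or 0.05 with library totals alone, and Nr4a3, an orphan nuclear receptor among them, had 5.26, 4.61, 4.42, 3.25 and 6.31 CPM in Mcm8Ko LCWE hearts and 76.7, 3.70 and 8.29 CPM in Mcm8Ko PBS hearts, so that 1 heart stood apart from all others, with an interaction value of -2.55 ± 0.88 (SE, adjusted p = 0.583).

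Protein-folding and stress genes had lower interaction values. The heat shock chaperones had a median of -0.41 with 0 of 21 positive and 7 lower at an unadjusted p under 0.05 (4.98% of all genes). Hspb8, a small heat shock protein of muscle, had 393, 458, 375, 487 and 392 CPM in Mcm8Ko LCWE hearts and 606, 562 and 632 CPM in Mcm8Ko PBS hearts. It had 386 to 547 CPM (median 487) in Wt LCWE hearts and 515, 489, 445, 478 and 472 CPM in Wt PBS hearts. The 3 Mcm8Ko PBS hearts were above all 16 others, Hspb8 fell after LCWE in Mcm8Ko hearts (log2 fold change -0.51 ± 0.12 SE, adjusted p = 0.0355), and the interaction value was -0.50 ± 0.16 (SE, adjusted p = 0.527). Hspa1b, an inducible HSP70, had 2.63, 8.18, 2.17, 3.39 and 2.34 CPM in Mcm8Ko LCWE hearts and 8.47, 4.80 and 60.6 CPM in Mcm8Ko PBS hearts. The wild-type groups had 2.17 to 3.57 CPM (median 2.90) in Wt LCWE hearts and 2.92, 3.43, 1.98, 2.67 and 3.12 CPM in Wt PBS hearts. One heart, Mcm8Ko PBS replicate 3, was far above the rest, and the same heart was highest for the near-identical Hspa1a at 39.6 CPM, from which reads cannot be told apart with certainty. The interaction value of Hspa1b was -2.76 ± 0.78 (SE, adjusted p = 0.527). The heat shock element, read on both strands, was in 3 of 16 promoters of the list (Hsph1, Hspd1 and Hspe1) and in 0.662% of all promoters. Without Mcm8Ko PBS replicate 3 the list's median was -0.19.

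The unfolded protein and integrated stress responses, which slow translation and raise chaperones of the endoplasmic reticulum, had a median of -0.29 over 26 tested of 27 genes. Of these, 9 were positive and 5 were lower at an unadjusted p under 0.05 (4.98% of all genes). Ddit3, which encodes the stress transcription factor CHOP, had 14.5, 26.1, 13.7, 22.5 and 27.1 CPM in Mcm8Ko LCWE hearts and 38.2, 20.5 and 84.4 CPM in Mcm8Ko PBS hearts. It had 13.7 to 25.02 CPM (median 20.99) in Wt LCWE hearts and 12.9, 12.96, 13.5, 15.8 and 21.01 CPM in Wt PBS hearts. Mcm8Ko PBS replicate 3 was the highest heart and replicate 1 the next, and the interaction value was -1.63 ± 0.44 (SE, adjusted p = 0.527). Dnajc3, a co-chaperone that inhibits the kinase PERK, had 52.3, 59.3, 47.7, 54.5 and 56.7 CPM in Mcm8Ko LCWE hearts and 83.6, 56.4 and 151 CPM in Mcm8Ko PBS hearts and an interaction value of -0.75 ± 0.25 (SE, adjusted p = 0.555), and it fell after LCWE in Mcm8Ko hearts. The list's median was -0.03 without Mcm8Ko PBS replicate 3 and -0.53 without replicate 2.

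The oxidative stress response, run largely by NRF2, had a median of -0.58 over 19 tested of 20 genes. Of these, 2 were positive and 8 were lower at an unadjusted p under 0.05 (4.98% of all genes). Nfe2l2, which encodes NRF2, had 62.1, 76.5, 65.3, 68.2 and 60.4 CPM in Mcm8Ko LCWE hearts and 143, 76.9 and 98.1 CPM in Mcm8Ko PBS hearts. It had 58.7 to 79.3 CPM (median 65.7) in Wt LCWE hearts and 67.5, 71.6, 72.98, 62.5 and 69.5 CPM in Wt PBS hearts. Mcm8Ko PBS replicates 1 and 3 were above every other heart, and Nfe2l2 fell after LCWE in Mcm8Ko hearts (log2 fold change -0.67 ± 0.14 SE, adjusted p = 0.0301) with an interaction value of -0.63 ± 0.19 (SE, adjusted p = 0.527). Gclm, the modifier subunit of glutathione synthesis, had 13.3, 12.7, 16.5, 17.6 and 12.2 CPM in Mcm8Ko LCWE hearts and 35.4, 15.4 and 37.3 CPM in Mcm8Ko PBS hearts and an interaction value of -0.96 ± 0.29 (SE, adjusted p = 0.527). Hmox1, heme oxygenase 1, had 14.5, 9.74, 13.3, 29.6 and 11.9 CPM in Mcm8Ko LCWE hearts and 57.4, 13.6 and 22.3 CPM in Mcm8Ko PBS hearts and a value of -1.54 ± 0.53 (SE, adjusted p = 0.583), and Cat, catalase, a value of -0.81 ± 0.29 (SE, adjusted p = 0.587). The list's median was -0.78 to -0.43 with single libraries left out, and 0.00 in libraries with Xist reads, which hold 1 Mcm8Ko LCWE heart.

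Mitophagy removes damaged mitochondria, after tagging by the kinase PINK1 or through receptors such as BNIP3. The list of mitophagy and mitochondrial dynamics had a median of -0.34 over 27 tested of 28 genes. Of these, 3 were positive and 7 were lower at an unadjusted p under 0.05 (4.98% of all genes). Bnip3 had 95.5, 65.8, 102, 158 and 100.1 CPM in Mcm8Ko LCWE hearts and 489, 126 and 199.1 CPM in Mcm8Ko PBS hearts. It had 84.9 to 111 CPM (median 103) in Wt LCWE hearts and 94.8, 116, 115, 118 and 133.99 CPM in Wt PBS hearts. Mcm8Ko PBS replicate 1 was the highest heart by a wide margin, replicate 3 was next and replicate 2 was within the range of the rest. Bnip3 fell after LCWE in Mcm8Ko hearts (log2 fold change -1.38 ± 0.30 SE, adjusted p = 0.0304), and its interaction value was -1.19 ± 0.39 (SE, adjusted p = 0.556). Pink1 had an interaction value of -0.37 ± 0.23 (SE, adjusted p = 0.696), with 668, 617, 782, 1010 and 971 CPM in Mcm8Ko LCWE hearts and 1180, 987 and 1118 CPM in Mcm8Ko PBS hearts and with 722 to 1088 CPM in Wt LCWE hearts. Values were -0.67 ± 0.28 (SE, adjusted p = 0.598) for the receptor Optn and -0.68 ± 0.26 (SE, adjusted p = 0.587) for the autophagosome protein gene Map1lc3b. Single libraries left out gave medians from -0.44 (without Mcm8Ko PBS replicate 2) to -0.12 (without Mcm8Ko PBS replicate 1).

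Nitric oxide made in endothelium acts through cGMP to relax vessels. The list had a median of -0.24 over 14 tested of 20 genes, with 6 positive, and from -0.37 (without Mcm8Ko PBS replicate 2) to -0.03 (without Mcm8Ko PBS replicate 1) with single libraries left out. Nos3, the endothelial synthase, had 116, 128, 100.4, 70.1 and 92.9 CPM in Mcm8Ko LCWE hearts and 141, 113 and 118 CPM in Mcm8Ko PBS hearts and an interaction value of -0.25 ± 0.22 (SE, adjusted p = 0.779). Nos2, the inducible synthase, had 26.7, 27.8, 25.9, 14.97 and 17.8 CPM in Mcm8Ko LCWE hearts and 10.01, 25.1 and 10.5 CPM in Mcm8Ko PBS hearts. It had 17.8 to 33.3 CPM (median 22.5) in Wt LCWE hearts and 29.6, 28.7, 24.2, 19.95 and 24.9 CPM in Wt PBS hearts. Nos2 levels overlapped between all groups and Mcm8Ko PBS replicates 1 and 3 were lowest, with an interaction value of 0.64 ± 0.36 (SE, adjusted p = 0.656).

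The 54 genes of oxidative phosphorylation and the 46 tested of 47 cytosolic ribosomal protein genes had small values, nearly all negative with the scaling used here. Their medians were -0.17 and -0.19, with 1 and 0 positive, and 0 members of either had an unadjusted p under 0.05. With library totals alone the medians were -0.05 and -0.06, with 13 and 10 positive. Single libraries left out gave -0.23 (without Mcm8Ko LCWE replicate 3) to -0.10 (without Wt LCWE replicate 3) for oxidative phosphorylation and -0.29 (without Mcm8Ko LCWE replicate 4) to -0.04 (without Wt LCWE replicate 3) for ribosomal proteins. Ndufv1 of complex I had an interaction value of -0.24 ± 0.15 (SE, adjusted p = 0.691) and Rpl27 of the large ribosomal subunit one of -0.33 ± 0.26 (SE, adjusted p = 0.763). In libraries with Xist reads the ribosomal median was 0.22 and 45 of 46 were positive.

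Leukocyte genes had higher interaction values, apart from T and NK cell genes. In whole heart, more cells of a type and more RNA per cell cannot be told apart. Monocyte and macrophage genes had a median of 0.65 with 25 of 28 positive and 2 higher at an unadjusted p under 0.05 (3.03% of all genes). The LCWE median was 1.39 in Mcm8Ko hearts, where 5 members rose (background 0.818%), and 0.63 in Wt hearts, where 0 were called. Knockout over wild type, the median was 0.36 under LCWE and -0.24 under PBS.

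Mrc1, the mannose receptor of resident macrophages, had 32.2, 31.5, 28.5, 49.9 and 41.9 CPM in Mcm8Ko LCWE hearts and 10.8, 20.3 and 11.8 CPM in Mcm8Ko PBS hearts. It had 22.2 to 38.3 CPM (median 29.6) in Wt LCWE hearts and 20.5, 19.7, 18.9, 29.5 and 15.1 CPM in Wt PBS hearts. Replicates 1 and 3 of Mcm8Ko PBS were below all other hearts, Mrc1 rose after LCWE in Mcm8Ko hearts (log2 fold change 1.36 ± 0.25 SE, adjusted p = 0.0182), and the interaction value was 0.84 ± 0.31 (SE, adjusted p = 0.587). Aif1, a macrophage calcium-binding protein, had 3.94, 2.21, 2.62, 6.23 and 5.60 CPM in Mcm8Ko LCWE hearts and 0.280, 2.19 and 0.452 CPM in Mcm8Ko PBS hearts and an interaction value of 1.45 ± 0.68 (SE, adjusted p = 0.606), on 4 to 32 counts in the Mcm8Ko PBS libraries. Ptprc, the pan-leukocyte marker CD45, had 9.66, 9.996, 11.2, 18.6 and 20.2 CPM in Mcm8Ko LCWE hearts and 4.20, 6.31 and 5.65 CPM in Mcm8Ko PBS hearts. Levels in wild type were 6.90 to 14.9 CPM (median 10.5) in Wt LCWE hearts and 7.60, 6.17, 7.53, 5.34 and 6.24 CPM in Wt PBS hearts. Ptprc rose after LCWE in Mcm8Ko hearts (log2 fold change 1.37 ± 0.27 SE, adjusted p = 0.0261) with an interaction value of 0.67 ± 0.34 (SE, adjusted p = 0.639). C1qb of the complement C1q complex had 75.8, 58.4, 70.7, 188 and 119.9 CPM in Mcm8Ko LCWE hearts and 34.03, 62.3 and 19.4 CPM in Mcm8Ko PBS hearts and a value of 0.59 ± 0.52 (SE, adjusted p = 0.792), and Mcm8Ko LCWE replicates 4 and 5 were its highest hearts. Adgre1, which encodes F4/80, and Cx3cr1, the fractalkine receptor, had values of 1.04 ± 0.59 (SE, adjusted p = 0.662) and 1.44 ± 0.73 (SE, adjusted p = 0.643). The macrophage median was 0.35 without Mcm8Ko LCWE replicate 4 and 1.17 without Mcm8Ko PBS replicate 2. In the latter setting 4 of 28 were called higher (background 1.53%), and without Mcm8Ko PBS replicate 1, 0 were.

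Neutrophil genes, 10 tested of 16, had a median of 1.15 and were all positive, with 0 at an unadjusted p under 0.05. S100a8, a calprotectin subunit of neutrophils, had 1.39, 2.27, 1.87, 21.4 and 5.14 CPM in Mcm8Ko LCWE hearts and 0.350, 0.754 and 0.301 CPM in Mcm8Ko PBS hearts. It had 0.270 to 12.9 CPM (median 1.66) in Wt LCWE hearts and 0.501, 0.810, 0.456, 0.734 and 0.148 CPM in Wt PBS hearts. A single LCWE heart of the knockout (replicate 4) was the highest, the groups overlapped and the interaction value was 0.97 ± 1.52 (SE, adjusted p = 0.897). The list's median was 0.21 without Mcm8Ko LCWE replicate 4 and 1.92 without Wt LCWE replicate 3. B cell genes, 5 tested of 9, had a median of 0.94 and were all positive, with Cd79b of the B cell receptor at 1.001 ± 0.67 (SE, adjusted p = 0.719). The B cell median ran from 0.65 (without Wt PBS replicate 2) to 1.43 (without Mcm8Ko PBS replicate 2). T and NK cell genes, 10 tested of 18, had a median of -0.04 with 5 positive, and 0.06 with library totals alone. Their LCWE medians were 1.75 in Mcm8Ko and 1.87 in Wt hearts, and Gzma, granzyme A, had an interaction value of 1.33 ± 1.27 (SE, adjusted p = 0.810).

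Platelet and erythroid genes, 10 tested of 15, had the lowest median of the lists apart from the sex-linked one. It was -1.18, with 1 positive and 3 lower at an unadjusted p under 0.05 (4.98% of all genes). After LCWE the median was -0.09 in Mcm8Ko hearts and 0.97 in Wt hearts. Alas2, the first enzyme of heme synthesis in erythroid cells, had 3.94, 14.02, 20.8, 11.5 and 2.28 CPM in Mcm8Ko LCWE hearts and 14.6, 6.65 and 39.1 CPM in Mcm8Ko PBS hearts. It had 16.6 to 38.8 CPM (median 28.98) in Wt LCWE hearts and 11.4, 15.8, 3.88, 21.7 and 11.5 CPM in Wt PBS hearts. Most Wt LCWE hearts were above the Wt PBS hearts while the knockout groups overlapped, and the interaction value was -2.09 ± 0.81 (SE, adjusted p = 0.587). Itga2b, the platelet integrin alpha IIb, had 2.47, 2.86, 2.25, 6.91 and 4.68 CPM in Mcm8Ko LCWE hearts and 10.5, 3.43 and 4.75 CPM in Mcm8Ko PBS hearts and a value of -1.38 ± 0.63 (SE, adjusted p = 0.601). The platelet genes Treml1 and Gp9 had at most 15 and 37 counts in any library, with interaction values of -3.47 ± 1.44 (SE, adjusted p = 0.598) and -2.36 ± 1.24 (SE, adjusted p = 0.643). The list's median was 0.05 in libraries with Xist reads, and how much blood each heart held was not tested.

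Interferon-stimulated genes, which cells switch on against viruses and in many inflammations, had estimates that were higher in the knockout under both treatments. The median interaction value over 39 tested of 40 genes was 0.21, against -0.02 over all genes. Of the 39, 29 were positive (74.4%, against 47.1% of all genes) and 0 had an unadjusted p under 0.05. Knockout over wild type, the median was 1.07 under LCWE and 0.81 under PBS, with all 39 estimates positive in both. In edgeR's test 0 were called in either, and 36 under LCWE and 21 under PBS had an unadjusted p under 0.05 (2.43% and 12.3% of all genes, higher). Oas3, an RNA-sensing oligoadenylate synthetase, had 6.42, 0.844, 0.450, 12.9 and 8.59 CPM in Mcm8Ko LCWE hearts and 1.82, 1.65 and 0.226 CPM in Mcm8Ko PBS hearts, on 3 to 190 counts. Wild-type levels were 0.248 to 1.01 CPM (median 0.568) in Wt LCWE hearts and 0.668, 0.685, 0.456, 0.133 and 0.445 CPM in Wt PBS hearts. Mcm8Ko LCWE replicates 1, 4 and 5 were high and replicates 2 and 3 were within the wild-type range, and the interaction value was 1.97 ± 1.13 (SE, adjusted p = 0.668). Dhx58, the helicase LGP2, had 19.6, 6.43, 6.14, 20.1 and 11.4 CPM in Mcm8Ko LCWE hearts and 4.76, 10.3 and 1.51 CPM in Mcm8Ko PBS hearts and a value of 1.34 ± 0.65 (SE, adjusted p = 0.622). The list's median was -0.10 without Mcm8Ko PBS replicate 3 and 0.53 without replicate 2. The core of the interferon-stimulated response element, read on both strands, was in 19 of 27 promoters of the list and in 3.99% of all promoters.

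Antigen presentation gave mixed values. MHC class I presentation genes had a median of -0.02 with 6 of 13 positive and 3 lower at an unadjusted p under 0.05, and 0.09 with library totals alone. H2-K1, a classical class I heavy chain with close paralogs, had 355, 326, 249, 499 and 638 CPM in Mcm8Ko LCWE hearts and 356, 634 and 351 CPM in Mcm8Ko PBS hearts. It had 239.7 to 437 CPM (median 331) in Wt LCWE hearts and 216, 189.8, 190.4, 189.6 and 265 CPM in Wt PBS hearts. All 3 Mcm8Ko PBS hearts were above all 5 Wt PBS hearts, and the interaction value was -0.79 ± 0.34 (SE, adjusted p = 0.598). MHC class II genes had a median of 0.19 with 7 of 7 positive. Single libraries left out gave class II medians from -0.32 (without Mcm8Ko PBS replicate 1) to 2.17 (without Mcm8Ko PBS replicate 2). H2-DMa, which loads peptides on class II molecules, had 4.33, 3.12, 5.54, 5.90 and 5.01 CPM in Mcm8Ko LCWE hearts and 0.630, 6.38 and 1.21 CPM in Mcm8Ko PBS hearts, and wild-type hearts had 3.77 to 7.56 CPM (median 5.29) in Wt LCWE hearts and 6.01, 4.36, 4.18, 5.74 and 3.86 CPM in Wt PBS hearts. Mcm8Ko PBS replicate 2 was within the range of the other groups, replicates 1 and 3 were below it, and the interaction value was 0.56 ± 0.59 (SE, adjusted p = 0.830). Without Mcm8Ko PBS replicate 2, 6 of the 7 class II genes were called higher (background 1.53%), and without Mcm8Ko PBS replicate 1, 0 were called. No direction is read from these counts.

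Cytokines and chemokines, 21 tested of 29, had a median of 0.15 with 15 positive. Cxcl10, an interferon-induced chemokine, had 1.86, 0.844, 0.450, 2.78 and 1.95 CPM in Mcm8Ko LCWE hearts and 0.630, 1.51 and 1.13 CPM in Mcm8Ko PBS hearts, on 6 to 41 counts in these knockout libraries. It had 0.236 to 1.73 CPM (median 1.09) in Wt LCWE hearts and 0.0760 to 0.561 CPM in Wt PBS hearts, the latter on 1 to 9 counts. The LCWE change was 0.53 ± 0.57 (SE) in Mcm8Ko and 1.89 ± 0.55 (SE) in Wt hearts. The interaction value of -1.36 ± 0.78 (SE, adjusted p = 0.667) thus rests on few counts in Wt PBS hearts. Cxcl13, a B cell attractant, had 309 counts in 1 Mcm8Ko LCWE heart (replicate 4, 20.9 CPM), at most 2 in Mcm8Ko PBS, 10 in Wt LCWE and 19 in Wt PBS hearts, and its interaction value was 6.001 ± 2.44 (SE, adjusted p = 0.598). DNA and RNA sensing genes had a median of 0.13 and inflammasome and toll-like receptor genes one of 0.20. With single libraries left out, the sensing median ran from 0.03 (without Mcm8Ko PBS replicate 3) to 0.29 (without Mcm8Ko PBS replicate 2) and the inflammasome and toll-like receptor median from 0.13 (without Wt PBS replicate 3) to 0.26 (without Mcm8Ko PBS replicate 2). Unc93b1, which carries endosomal toll-like receptors, rose after LCWE in Mcm8Ko hearts (log2 fold change 1.34 ± 0.30 SE, adjusted p = 0.0322) with an interaction value of 0.86 ± 0.37 (SE, adjusted p = 0.598).

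Genes of fibroblasts and the extracellular matrix had higher interaction values. The median was 0.79 over 25 tested of 26 genes, with 22 positive and 5 higher at an unadjusted p under 0.05 (3.03% of all genes). The LCWE median was 0.85 in Mcm8Ko and 0.09 in Wt hearts. Col1a1, the alpha 1 chain of collagen I, had 304, 328, 239, 116.9 and 140.4 CPM in Mcm8Ko LCWE hearts and 60.8, 146 and 86.9 CPM in Mcm8Ko PBS hearts. It had 117.1 to 345 CPM (median 183) in Wt LCWE hearts and 209, 249.7, 208, 144 and 135 CPM in Wt PBS hearts. Mcm8Ko PBS replicates 1 and 3 were below every other heart, and the interaction value was 1.12 ± 0.50 (SE, adjusted p = 0.598). Col3a1, of collagen III, had 790.5, 744, 623, 164 and 253 CPM in Mcm8Ko LCWE hearts and 43.7, 318 and 79.6 CPM in Mcm8Ko PBS hearts and a value of 1.68 ± 0.82 (SE, adjusted p = 0.630), and Mcm8Ko LCWE replicates 4 and 5 were well below replicates 1 to 3. Col14a1, a fibril-associated collagen, had 37.9, 38.6, 29.97, 31.3 and 18.7 CPM in Mcm8Ko LCWE hearts and 5.39, 27.98 and 11.7 CPM in Mcm8Ko PBS hearts and a value of 0.92 ± 0.42 (SE, adjusted p = 0.600). The list's median was 0.52 without Mcm8Ko PBS replicate 1 and -0.05 in libraries with Xist reads, where replicate 4 is the only Mcm8Ko LCWE heart.

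Endothelial genes had slightly lower values, with a median of -0.27 and 3 of 28 positive. At an unadjusted p under 0.05, 4 were lower (4.98% of all genes). Sox17, a transcription factor of arterial endothelium, had 25.8, 26.03, 28.9, 33.9 and 28.8 CPM in Mcm8Ko LCWE hearts and 76.9, 32.8 and 52.4 CPM in Mcm8Ko PBS hearts. It had 21.2 to 28.7 CPM (median 22.9) in Wt LCWE hearts and 20.4, 21.6, 22.6, 29.7 and 38.9 CPM in Wt PBS hearts. Replicates 1 and 3 of Mcm8Ko PBS were the highest hearts, Sox17 fell after LCWE in Mcm8Ko hearts (log2 fold change -0.91 ± 0.22 SE, adjusted p = 0.0355), and its interaction value was -0.74 ± 0.29 (SE, adjusted p = 0.587). Nr2f2, a factor of venous endothelium also found in atrial muscle, had 12.2, 11.6, 12.4, 8.40 and 10.9 CPM in Mcm8Ko LCWE hearts and 23.5, 10.97 and 21.8 CPM in Mcm8Ko PBS hearts and a value of -0.63 ± 0.24 (SE, adjusted p = 0.587). Smooth muscle and pericyte genes had a median of 0.19 with 12 of 16 positive, 3 higher and 1 lower at an unadjusted p under 0.05. That median ran from 0.09 (without Wt LCWE replicate 2) to 0.29 (without Mcm8Ko PBS replicate 2). Acta2, smooth muscle actin, had 737, 676, 659, 119 and 275 CPM in Mcm8Ko LCWE hearts and 98.9, 111 and 109 CPM in Mcm8Ko PBS hearts. Its wild-type levels were 158 to 787 CPM (median 423) in Wt LCWE hearts and 377, 351, 451, 178 and 220.5 CPM in Wt PBS hearts. The 3 Mcm8Ko PBS hearts were below all others and Mcm8Ko LCWE replicates 4 and 5 were below the rest of their group, and the interaction value was 1.75 ± 0.75 (SE, adjusted p = 0.598). Cspg4, a pericyte proteoglycan, had a value of 0.62 ± 0.23 (SE, adjusted p = 0.587).

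Cardiomyocyte genes had medians near that of all genes. The sarcomere list had a median of -0.03 with 9 of 21 positive, or 0.08 with library totals alone, and the calcium and ion channel list one of 0.06. Mybpc3, cardiac myosin-binding protein C, had 6290, 6499, 6467, 8192 and 6137 CPM in Mcm8Ko LCWE hearts and 3387, 5690 and 4128 CPM in Mcm8Ko PBS hearts and an interaction value of 0.47 ± 0.22 (SE, adjusted p = 0.600), and the potassium channel gene Kcnq1 rose after LCWE in Mcm8Ko hearts (log2 fold change 0.50 ± 0.13 SE, adjusted p = 0.0437) with a value of 0.36 ± 0.17 (SE, adjusted p = 0.600). Myh7, the beta myosin heavy chain of the fetal and loaded heart, split within the knockout groups at 851, 1701, 729.9, 16702 and 20424 CPM in Mcm8Ko LCWE hearts and 14213, 803 and 13251 CPM in Mcm8Ko PBS hearts. Wild-type hearts had 464 to 2540 CPM (median 2112) in Wt LCWE hearts and 603, 694, 587, 2576 and 3216 CPM in Wt PBS hearts, and the interaction value was -0.41 ± 1.42 (SE, adjusted p = 0.962). Nppa, atrial natriuretic peptide, had a value of 0.53 ± 0.53 (SE, adjusted p = 0.821). Among other tissues a heart sample can hold, the median was -0.10 for skeletal muscle (0.05 with library totals alone), -0.15 for atrial myocardium, -0.33 for adipocytes, -0.22 for epicardium and 0.55 for neurons and Schwann cells. The adipocyte median ran from -0.44 (without Mcm8Ko PBS replicate 2) to -0.14 (without Wt LCWE replicate 4) and that of neurons and Schwann cells from 0.36 (without Mcm8Ko PBS replicate 1) to 0.67 (without Mcm8Ko LCWE replicate 3). Liver markers had a median of -0.42. The liver median ranged from -1.04 (without Wt PBS replicate 5) to 0.93 (without Mcm8Ko PBS replicate 3). The 5 tested sex-linked genes had a median of -3.52.

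Replication genes had medians somewhat above the -0.02 of all genes, and few members had an unadjusted p under 0.05. Positive values made up 70.8% of the MCM and recombination list and 72% of cell cycle genes, against 47.1% of all genes. The MCM and recombination list had a median of 0.17 over 24 tested of 28 genes, with 17 positive, 1 higher and 1 lower (Mcm8 itself) at an unadjusted p under 0.05. Single libraries left out gave medians from 0.08 (without Mcm8Ko PBS replicate 3) to 0.39 (without Mcm8Ko PBS replicate 2). Blm, the Bloom helicase, had 2.55, 1.95, 2.62, 1.42 and 2.28 CPM in Mcm8Ko LCWE hearts and 1.61, 1.097 and 0.753 CPM in Mcm8Ko PBS hearts and an interaction value of 1.004 ± 0.44 (SE, adjusted p = 0.598). Cell cycle genes had a median of 0.29 with 18 of 25 positive, 1 higher and 2 lower at an unadjusted p under 0.05. That median ran from 0.08 (without Mcm8Ko PBS replicate 1) to 0.79 (without Mcm8Ko PBS replicate 2). Top2a, DNA topoisomerase II alpha of dividing cells, had 6.18, 6.49, 4.87, 3.79 and 3.25 CPM in Mcm8Ko LCWE hearts and 0.420, 3.70 and 0.377 CPM in Mcm8Ko PBS hearts. It had 1.01 to 8.77 CPM (median 2.50) in Wt LCWE hearts and 3.26, 2.12, 4.48, 2.07 and 2.30 CPM in Wt PBS hearts. Mcm8Ko PBS replicates 1 and 3 were lowest and replicate 2 was within the other groups, and the value was 1.46 ± 0.83 (SE, adjusted p = 0.663). Pcna, the sliding clamp of replication, had a value of -0.34 ± 0.16 (SE, adjusted p = 0.606).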

How the data were processed

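Heart RNA went through reverse transcription and preamplification with a kit for whole transcriptomes, per the labels' protocols. The deposited table held raw counts per gene symbol, 1 column for each of 19 libraries. The submitters' processing notes name STAR 2.7.8a, limma 3.36.160 and build GRCm38, without their roles, and the counting program, annotation and strand setting were not given in the sources used here, so reads of overlapping and antisense genes may not be separable. Preamplified reads without molecular identifiers are not independent molecules, and the standard errors describe the spread between libraries. Of 25239 symbols, 14301 passed edgeR's expression filter (minimum count 10, minimum total 15).

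Counts were scaled with TMM factors and fitted in 1 model of 4 groups with no covariates by edgeR 4.0.16 (R 4.3.3), with robust quasi-likelihood dispersions. Each contrast was tested 2-sided with Benjamini-Hochberg adjustment over all tested genes at 0.05, and SE is the absolute log2 fold change over the square root of F. CPM used TMM-scaled totals, and levels of lists used log2 CPM with a prior count of 2. Levels are not per length and were compared between libraries, not between genes. The script was tested on simulated counts. No 2 columns were identical, and all 38 pairs of libraries within a group differed by more than counting noise (chi-square per gene 8.88 to 116 over 11198 genes).

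Alternatives were RLE size factors or library totals in place of TMM, other filters, a fit that was not robust, DESeq2 1.42.0, limma-voom 3.58.1 with and without library weights, covariates (label number range, genes detected, level of Y-linked genes, 1 surrogate variable from sva 3.50.0), restriction by label number, and leaving out each library. Restrictions to libraries with Xist reads (over 20 CPM) and to those without atrial transcripts (Myl7 over 5 CPM) were added after seeing the data. What the label numbers stand for is not given.

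The comparison, gene lists and tests were chosen with earlier results of these data known. Named genes were Mcm8, the 12 with the smallest interaction p on either side of 0 among genes averaging 5 CPM or more, the 2 with the smallest p in each list with at least 3 tested members averaging 1 CPM or more, and a set of 15 given as values. Some genes this rule picks are not reported here. The 13 others named in the report with values, which include Per2, Npas2, Hmox1, Acadm and Col3a1, and the promoter shown were chosen after their values were seen. Sequences are from RefSeq GRCm38.p6, and gene coordinates from GENCODE M21 or, for Macroh2a2, RefSeq.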

Additional observations from a re-analysis of the deposited data

Results flagged for a closer look

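Dixon's 95% criterion was applied to log2 CPM in 255 pairs of a gene and a group of 5 or 6 libraries. In 20 of them a library's gap to the next was a large part of the group's range on that scale. Chance gives about 1 in 20 such pairs. Values printed are CPM. Mcm8Ko LCWE replicate 4 accounted for 5: it was the highest of its group for Cyp4b1 (42.6 CPM), Mybpc3 (8190 CPM) and Cd79b (3.52 CPM), and the lowest for Osbpl7 (11.5 CPM) and Cep95 (8.67 CPM). Mcm8Ko LCWE replicate 2 was the lowest of its group for Hif1a (62.4 CPM) and Cx3cr1 (10.9 CPM) and the highest for Hspa1a (8.37 CPM), and Mcm8Ko LCWE replicate 5 was the lowest for Cenpa (26.2 CPM).

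Among Wt LCWE hearts, replicate 3 was the lowest for Fhod1 (38.4 CPM), Tsc22d3 (57.3 CPM) and Hspa1a (1.11 CPM) and the highest for Ndufv1 (1240 CPM). Replicate 1 was the highest for Lmnb1 (14.6 CPM), replicate 4 the lowest for Mt1 (175 CPM) and replicate 6 the lowest for Npas2 (4.33 CPM). Among Wt PBS hearts, replicate 4 was the lowest for Nos3 (85.1 CPM) and Dhx58 (2.4 CPM), replicate 2 the highest for Itga2b (4.98 CPM) and replicate 5 the highest for Ndufv1 (1070 CPM). The 3 Mcm8Ko PBS hearts are too few for this criterion.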

How the results depend on the processing

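With all 19 libraries and edgeR's test, 0 genes were called for the interaction. DESeq2 called 5 (1 higher, 4 lower), limma-voom with library weights 21 (1 higher, 20 lower), the libraries numbered 100 to under 200 alone 2230 (1163 higher, 1067 lower), and the libraries without atrial transcripts 371 (158 higher, 213 lower). Leaving out single libraries gave 0 to 481 called genes (0 to 222 higher, 0 to 259 lower). The highest counts came without Mcm8Ko PBS replicate 2, and Cyp4b1 was called without Mcm8Ko LCWE replicate 4. The cause was not tested. All other alternatives called 0.

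Of 2960 values of 85 named genes over 35 alternatives, 2792 kept direction and side of the threshold, 152 passed the threshold and 16 changed sign. Among libraries numbered 100 to under 200, log2 interaction values were -0.16 for C1qb, -0.94 for S100a8 and -0.056 for Nppa. Among libraries with Xist reads they were -0.12 for Nos2, 0.19 for Bnip3, 0.87 for Myh7, 0.095 for Map1lc3b, 0.050 for Itga2b, -0.21 for Acta2, -0.037 for Cspg4, 0.26 for Mt1, 0.32 for Hmox1 and -0.14 for Col3a1. Without atrial libraries Nppa was at -0.087. With single libraries left out, S100a8 ranged from -0.29 to 1.92 and Myh7 from -1.10 to 0.019.

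No paired analysis was possible because the labels give the groups no shared replicate numbers. The simulated counts held interactions of a few known sizes, and the smallest interaction this design can call was not determined from them. Genes under about 1 CPM rest on few counts, since 3 counts stand for 0.186 to 0.255 CPM. Xist reads, liver transcripts and label number range are unevenly spread over the groups. The only Mcm8Ko LCWE library with Xist reads also carries atrial transcripts.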
